A study of Mus musculus with 8 samples.

Results

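Bulk RNA-Seq of mouse pancreas was searched for transcripts of antibodies, and 144 of 48709 genes were immunoglobulin variable (V) or constant genes with measurable reads. They were chosen by name and by RPKM as deposited, a read count divided by exonic length in kilobases and by the mapped reads of the library. A gene was taken when its symbol began with *Ighv*, *Igkv*, *Iglv*, *Ighg*, *Iglc* or *Igkc*, or was *Igha*, *Ighm*, *Ighd* or *Ighe*, and when its RPKM was at least 0.5 in at least 2 of the 8 libraries. Of 361 rows with such names, 143 were at 0 in all 8 libraries and 74 were above 0 without reaching that level. The 144 genes were 62 of 185 *Ighv* genes, 68 of 160 *Igkv* genes, 3 of 3 *Iglv* genes, 7 of 8 heavy-chain constant genes, *Igkc*, and 3 of 4 lambda constant genes. *Ighe*, the constant gene of IgE, did not reach the minimum. The last genes inside it were *Igkv4-63* (second-highest RPKM 0.515), *Igkv5-45* (0.549) and *Ighv1-12* (0.554), and the nearest outside were *Ighv1-58* (0.497), *Ighv2-6* (0.462) and *Ighv14-1* (0.454). On a V gene of median exonic length (363 bp), 0.5 RPKM was 4.2 to 6.8 reads.

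The pancreata came from 8-week-old male mice, 24 hours after the injections, with 2 libraries in each of 4 groups. The groups were WT with saline, *Pfkfb3* cKO with saline, WT with FAEE-SAP, and cKO with FAEE-SAP. FAEE-SAP is a fatty acid ethyl ester model of severe acute pancreatitis, induced i.p. with palmitoleic acid (POA) and ethanol, preceded by saline and given with buprenorphine. The cKO mice were *Pfkfb3* fl/fl with Pdx1-Cre, which is active in the pancreatic epithelial lineage, and the floxed allele was made in C57BL/6J. The WT mice were bought from a supplier, so genotype and the origin of the mice cannot be told apart. All mice were fasted beforehand, and the RNA came from the snap-frozen portion of each pancreas. Gene-level *Pfkfb3*, whose values sum all exons, overlapped between the genotypes, with scaled RPKM of 1.70 and 1.69 in WT with saline and 1.85 and 3.21 with FAEE-SAP, and 0.880 and 2.10 in cKO with saline and 1.74 and 2.82 with FAEE-SAP. It therefore does not check the labels. No source states that the libraries of a group came from separate animals, so the p-values measure only the spread between these libraries.

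Antibodies are made by B lymphocytes and, in far larger amounts, by plasma cells. Each B cell joins 1 heavy-chain V gene to short D and J segments and 1 kappa or lambda V gene to a J segment, so that its descendants, a clone, share the same V genes. The constant gene sets the class. *Ighm* and *Ighd* encode IgM and IgD of naive B cells, the *Ighg* genes encode the IgG classes, and *Igha* encodes IgA, the class secreted at mucosal surfaces. The pancreas contains few such cells, and small lymph nodes lie against it. In bulk tissue, fewer cells of a type and less RNA per cell cannot be told apart.

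The members lie in the 3 immunoglobulin loci, 69 on chromosome 12 (heavy chain), 69 on chromosome 6 (kappa) and 6 on chromosome 16 (lambda), and the annotation lists 133 as V genes and 11 as constant genes. V genes resemble each other, which limits what a read can tell. The V exons of 4 genes are shown as the examples on which the results below turn. Each run is the last 300 bases of the V exon in the GENCODE transcript, 5′ to 3′ on the coding strand, on build GRCm38. Capitals mark the bases that lie within a window of 50 bases found without a mismatch in the transcript of another gene. *Igkv1-110* (chr6:68270968-68271267, plus strand) was called below and differs from *Igkv1-117* (chr6:68121528-68121827, plus strand) at 10 of the 300 bases (96.7% identity). Of their bases 224 and 223 are in capitals, and each shares windows with 2 genes. *Ighv12-3* (chr12:114366521-114366820, minus strand), with 0 such bases, and *Igkv4-91* (chr6:68768555-68768854, minus strand), with 65, were the leading V genes of a single library.
Igkv1-110: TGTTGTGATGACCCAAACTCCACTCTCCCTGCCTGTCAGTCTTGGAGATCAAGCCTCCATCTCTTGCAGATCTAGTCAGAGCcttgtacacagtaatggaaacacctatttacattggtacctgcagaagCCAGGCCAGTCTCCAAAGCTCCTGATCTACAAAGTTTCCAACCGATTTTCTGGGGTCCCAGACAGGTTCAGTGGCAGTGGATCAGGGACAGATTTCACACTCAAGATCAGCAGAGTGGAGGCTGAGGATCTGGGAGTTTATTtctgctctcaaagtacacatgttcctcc
Igkv1-117: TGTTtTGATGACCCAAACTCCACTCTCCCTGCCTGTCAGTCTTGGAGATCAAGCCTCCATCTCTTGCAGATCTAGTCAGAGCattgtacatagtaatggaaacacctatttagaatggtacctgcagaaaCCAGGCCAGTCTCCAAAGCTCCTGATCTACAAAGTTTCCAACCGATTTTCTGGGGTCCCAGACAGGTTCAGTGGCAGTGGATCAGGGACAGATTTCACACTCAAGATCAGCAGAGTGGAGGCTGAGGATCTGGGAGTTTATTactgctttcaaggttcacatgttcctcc
Ighv12-3: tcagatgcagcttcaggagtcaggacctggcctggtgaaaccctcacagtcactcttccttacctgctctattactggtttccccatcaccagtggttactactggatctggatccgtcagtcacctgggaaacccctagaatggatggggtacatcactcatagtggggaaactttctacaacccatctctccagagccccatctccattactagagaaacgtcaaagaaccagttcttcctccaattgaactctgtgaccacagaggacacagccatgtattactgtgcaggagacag
Igkv4-91: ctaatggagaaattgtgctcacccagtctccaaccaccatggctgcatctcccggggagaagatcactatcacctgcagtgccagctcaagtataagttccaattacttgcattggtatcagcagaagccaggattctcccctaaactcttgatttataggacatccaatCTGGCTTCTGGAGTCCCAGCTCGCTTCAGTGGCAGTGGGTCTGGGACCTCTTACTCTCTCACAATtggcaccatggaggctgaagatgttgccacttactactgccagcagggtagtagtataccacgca

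Over all members, 119 of 144 shared at least 1 window of 50 bases with another gene and 19 shared at least 50% of their windows, 13 of them *Igkv* and 6 *Ighv* genes. The median member shared 22.3% of its windows. With windows of 100 bases, 55 shared any and 3 shared at least 50%. Over the last 290 bases of the V exon, the median identity to the closest member was 94.1% among *Ighv* genes and 93.6% among *Igkv* genes. How the authors assigned reads that fit several genes is not given in the sources used here, so the value of a V gene with many capitals is uncertain. The constant genes are more distinct. *Igha*, *Ighm*, *Ighd*, *Igkc* and *Iglc1* shared no window, *Ighg2c* shared 5.49% of its windows with *Ighg2b*, and *Iglc3* shared 22.3%.

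Antibody transcripts were a small part of every library. The members took 3475 and 6924 reads in WT with saline and 10130 and 10865 with FAEE-SAP, and 5848 and 6353 in cKO with saline and 15364 and 8265 with FAEE-SAP, out of 22.9 to 37.7 M reads per library. These reads were worked out from RPKM and exonic length. Of the low immunoglobulin values, 979 of 983 (99.6%) came out within 0.1 of a whole read. Libraries were put on a common scale by the median of ratios over genes, with factors of 0.621 to 0.866 for saline, 0.975 and 1.05 for cKO FAEE-SAP, and 1.94 and 2.02 for WT FAEE-SAP. On this scale the summed RPKM of the members was 238 and 405 in WT with saline and 291 and 222 with FAEE-SAP, and 357 and 423 in cKO with saline and 749 and 379 with FAEE-SAP. With FAEE-SAP both cKO libraries were above both WT libraries, and with saline the genotypes overlapped. As deposited, the sums with FAEE-SAP were 589 and 429 in WT and 785 and 370 in cKO, which overlapped. The direction of a treatment difference in WT also turned with the scale, since the sums as deposited were 173 and 351 with saline. Scaling moved the median of all 11133 genes tested from 1.23 to 0.01 (log2) in that comparison.

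*Igkc*, the kappa constant gene and the highest of the members, had scaled RPKM of 57.5 and 97.8 in WT with saline and 74.8 and 53.4 with FAEE-SAP, and 99.7 and 113 in cKO with saline and 187 and 104 with FAEE-SAP. *Ighm*, of IgM, was the highest heavy-chain gene, at 22.6 and 44.98 in WT with saline and 24.8 and 23.6 with FAEE-SAP, and 41.3 and 41.0 in cKO with saline and 74.7 and 22.6 with FAEE-SAP. The replicates of cKO FAEE-SAP lay on either side of the other groups for *Ighm*, and its fold change turned from 0.76 to -0.09 (log2) without cKO FAEE-SAP replicate 1. *Igha*, of IgA (chr12:113254830-113260236, minus strand), was 7.11 and 7.24 in WT with saline and 6.49 and 8.01 with FAEE-SAP, and 6.22 and 9.51 in cKO with saline. In cKO FAEE-SAP it was 18.7 and 20.3, above the other 6 libraries, and the other 3 groups overlapped.

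**Figure D1:**
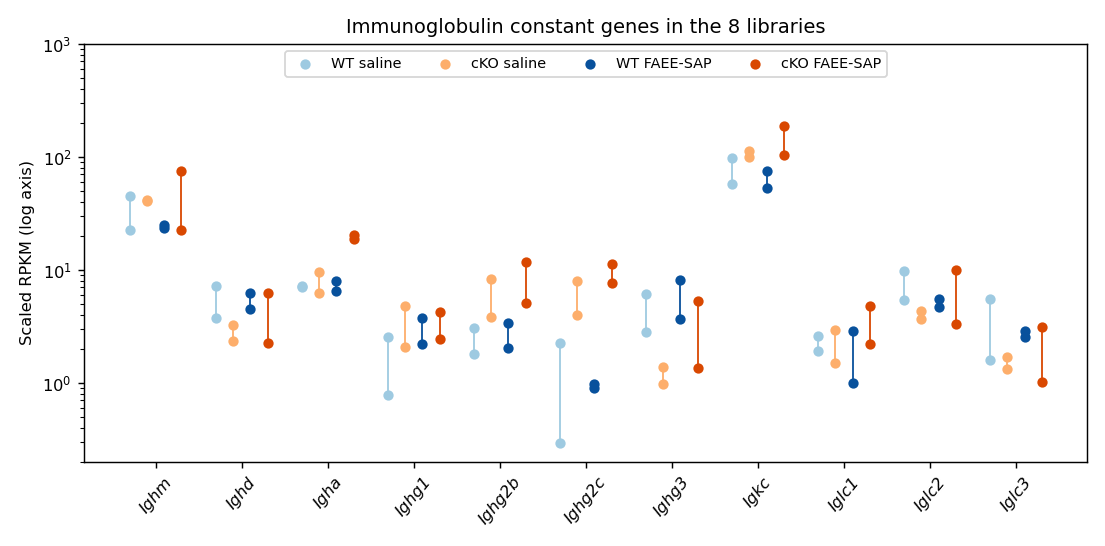
Scaled RPKM of the 11 constant genes on a log axis, with 1 point per library and a line joining the 2 libraries of a group. *Igha* stands at 18.7 and 20.3 in the cKO FAEE-SAP libraries and below 10 in all others, whereas most other genes spread as widely within a group as between groups.

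*Igha* was the 1 constant gene that passed the test in any comparison. It rose in cKO against WT with FAEE-SAP, by 1.42 on the log2 scale (SE 0.23), at an adjusted p of 0.0288 in limma after Benjamini-Hochberg adjustment over 11133 genes. On the values as deposited the difference was 0.46 (adjusted p = 0.143). FAEE-SAP against saline gave 1.33 in cKO (adjusted p = 0.102) and 0.01 in WT (adjusted p = 0.987), and the difference of these responses was 1.32 (SE 0.32, adjusted p = 0.217), all by the same limma model. The call was lost when any 1 of the 4 FAEE-SAP libraries or of the 2 WT saline libraries was left out, with fold changes of 1.26 to 1.57 and adjusted p of 0.0634 to 0.123.

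The IgG genes differed in their order by class. *Ighg2c*, a class of C57BL/6 mice, had scaled RPKM of 0.292 and 2.26 in WT with saline and 0.910 and 0.988 with FAEE-SAP, and 3.96 and 8.05 in cKO with saline and 11.2 and 7.73 with FAEE-SAP. All 4 cKO libraries were above all 4 WT libraries. The log2 fold change in cKO was 3.17 with FAEE-SAP (SE 0.76, adjusted p = 0.0728) and 2.58 with saline (SE 0.76, adjusted p = 1), which did not pass in limma. *Ighg2b*, its neighbor in the locus, was 1.81 and 3.09 in WT with saline and 3.38 and 2.04 with FAEE-SAP, and 3.84 and 8.30 in cKO with saline and 11.8 and 5.14 with FAEE-SAP. On this scale it was higher in every cKO library than in every WT library, by 1.53 with FAEE-SAP (SE 0.52, adjusted p = 0.143 in limma). As deposited the genotypes overlapped, with 6.84 RPKM in WT FAEE-SAP replicate 1 and 5.01 in cKO FAEE-SAP replicate 2. *Ighg3* had the opposite order in saline mice, with 2.82 and 6.13 in WT and 1.38 and 0.974 in cKO, and overlapped with FAEE-SAP (8.08 and 3.65 in WT, 5.34 and 1.35 in cKO). *Ighg1* ranged from 0.784 to 4.79 with overlap of all 4 groups.

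Ratios within a library do not depend on the scaling, and they were examined after the values had been seen, so they are given without a test. *Ighd* made up 9.50% and 9.86% of the summed heavy-chain constant RPKM in WT saline and 11.6% and 10.03% in WT FAEE-SAP. In cKO it was 3.82% and 4.32% with saline and 4.83% and 3.57% with FAEE-SAP. Each cKO library was therefore below each WT library. *Ighg2c* made up 1.91% ± 1.65 (SD, n = 2) in WT saline and 1.95% ± 0.353 in WT FAEE-SAP, against 8.55% ± 2.93 in cKO saline and 10.4% ± 2.52 in cKO FAEE-SAP. As shares of reads, not divided by gene length, they were 1.23% with saline and 1.20% with FAEE-SAP in WT. In cKO they were 5.55% with saline and 6.44% with FAEE-SAP. *Ighg3* went the other way, at 7.20% to 15.1% in the WT libraries and 1.28% to 4.09% in the cKO libraries. By RPKM, *Ighm* was the largest class in all 8 libraries, at 35.5% to 67.6%. *Igha* made up 9.84% to 18.2% of the RPKM in 7 libraries and 31.9% in cKO FAEE-SAP replicate 2. The RPKM ratio of *Igha* to *Ighm* was 0.898 in that replicate, against 0.151 to 0.340 in the others. By share of reads, *Igha* was the largest class in cKO FAEE-SAP replicate 2. It had 1627 of 4192 reads (38.8%) there, against 1280 (30.5%) for *Ighm*. In the other 7 libraries *Ighm* was the largest class by reads too.

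The light-chain ratio also separated by genotype. The ratio of *Igkc* to the summed lambda constant genes *Iglc1*, *Iglc2* and *Iglc3* was 6.40 and 5.48 in WT saline and 6.63 and 6.43 in WT FAEE-SAP. It was 15.3 and 12.7 in cKO saline and 10.4 and 15.9 in cKO FAEE-SAP. The 4 WT libraries lay within 5.48 to 6.63 and the 4 cKO libraries within 10.4 to 15.9. Neither chain passed the test on its own. In cKO against WT with FAEE-SAP, *Igkc* differed by 1.14 (SE 0.35, adjusted p = 0.118) and *Iglc2*, the highest lambda constant gene, by 0.17 (SE 0.49, adjusted p = 0.878), both in limma. *Iglc2* was 5.46 and 9.73 in WT with saline and 5.49 and 4.75 with FAEE-SAP, and 3.69 and 4.30 in cKO with saline and 9.95 and 3.31 with FAEE-SAP.

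**Figure D2:**
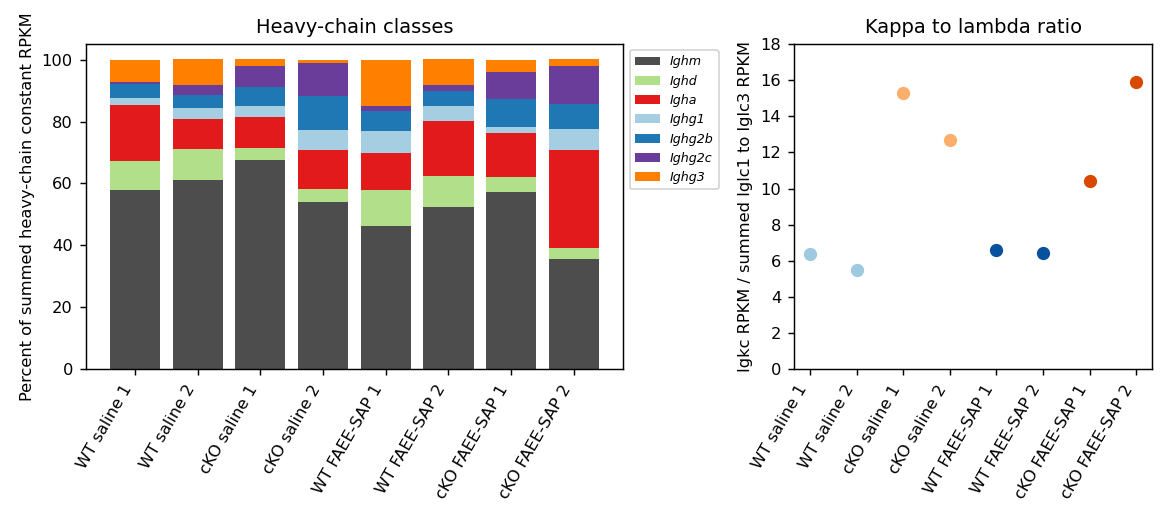
Left, share of each heavy-chain constant gene in the summed heavy-chain constant RPKM of each library, in percent. Right, ratio of *Igkc* to the 3 lambda constant genes in each library, with WT in blue and cKO in orange. The *Ighd* and *Ighg3* bands are wider in the WT libraries, the *Ighg2c* band is wider in the cKO libraries, and the ratio is 5.48 to 6.63 in WT and 10.4 to 15.9 in cKO.

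Across the members, most fold changes were positive in cKO against WT with FAEE-SAP. All 144 genes entered the test, whose filter was the same RPKM minimum. Of these, 119 were above 0 with a median log2 fold change of 1.15, against 0.01 for all genes tested. The medians were 1.20 for the 62 *Ighv* genes, 1.18 for the 68 *Igkv* genes, 0.76 for the 7 heavy-chain constant genes and 0.53 for the 4 light-chain constant genes. These genes share cells and libraries, so their number does not add replicates. Without cKO FAEE-SAP replicate 1 the median was 0.58, and on the values as deposited it was 0.32, where all genes had a median of -0.90. The test called 8 members higher and 0 lower (background, 1.66% of all genes tested called higher). At an unadjusted p under 0.05 and 2-fold, 46 were higher (background 4.78%) and 3 lower (background 3.09%).

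The 8 called members were 4 *Igkv* genes, 3 *Ighv* genes and *Igha*. *Igkv4-68*, described with its responses to FAEE-SAP, was one of them, with a log2 change of 1.66 (SE 0.24, adjusted p = 0.0213 in limma). *Igkv1-110*, the called V gene with the most reads, had scaled RPKM of 3.02 and 6.43 in WT with saline and 3.01 and 4.25 with FAEE-SAP, and 1.70 and 2.51 in cKO with saline and 15.4 and 13.7 with FAEE-SAP. The cKO FAEE-SAP libraries stood above the other 6, by 1.99 over WT FAEE-SAP (SE 0.37, adjusted p = 0.0405 in limma). Its near-identical copy *Igkv1-117*, shown above, was 2.29 and 1.91 in WT mice given FAEE-SAP, against 8.05 and 4.76 in cKO. *Ighv1-55* was 0.675 and 0.608 in WT mice given FAEE-SAP, against 3.67 and 2.80 in cKO, a log2 change of 2.16 (SE 0.34, adjusted p = 0.0286 in limma).

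For 4 of the called V genes there were few reads in WT mice given FAEE-SAP. *Igkv4-74* had 5 and 1 reads in WT mice given FAEE-SAP, against 74 and 42 in cKO, a log2 change of 4.42 (SE 0.81, adjusted p = 0.0395 in limma). *Ighv2-5* had 4 and 1 reads in WT mice given FAEE-SAP, against 25 and 21 in cKO, with 3.16 (SE 0.42, adjusted p = 0.0180 in limma), but it reached the minimum of 0.5 RPKM in the cKO FAEE-SAP libraries only, so it entered the test through the group in which it was high. *Ighv5-9-1* had 0 and 2 reads in WT mice given FAEE-SAP, against 14 and 10 in cKO, and the ratio of the pooled reads, each group's divided by its scaled depth, was 22.3 (exact 95% interval 5.53 to 195, counting error only). It reached the minimum in cKO libraries only. Over all members, 8 did so in cKO libraries only, among them both of these, and 2 in WT libraries only. *Igkv4-57-1* had 7 and 6 reads against 17 and 21, a log2 change of 2.10 (SE 0.31, adjusted p = 0.0230 in limma). *Igkv4-74* and *Igkv4-57-1* belong to the *Igkv4* family, in which *Igkv4-74* shared 48.1% of its windows with 26 other genes, most with *Igkv4-61*. With both directions counted, 2.65% of all genes were called in this comparison. The 8 calls fell to 0 when cKO FAEE-SAP replicate 1, cKO FAEE-SAP replicate 2 or WT FAEE-SAP replicate 2 was left out, and to 4, 3 of them among the 8, without WT FAEE-SAP replicate 1. The share of all genes called fell too, to 0.445%, 0.0811%, 0.239% and 2.12% in that order.

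**Figure D3:**
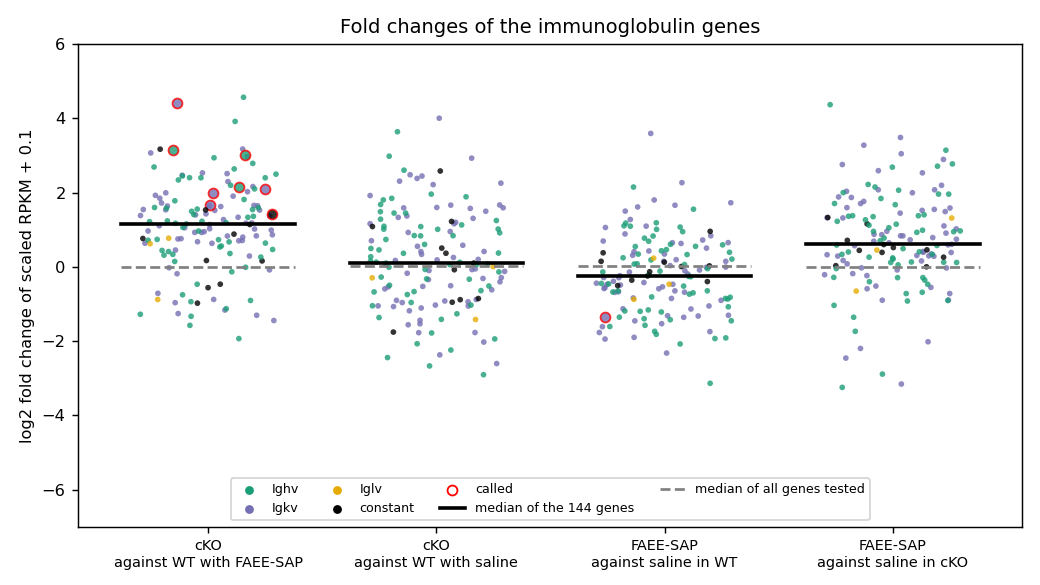
The log2 fold change of each of the 144 members in the 4 comparisons between groups (vertical axis, log2 of scaled RPKM + 0.1), colored by gene family, with a solid bar at the median of the members and a dashed bar at the median of all genes. Called members are circled. In cKO against WT with FAEE-SAP the member median is 1.15 with 8 circled above 0, and in WT mice given FAEE-SAP against saline it is -0.24 with 1 circled below 0.

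In saline-treated mice the members went both ways between the genotypes. There were 79 positive and 65 negative fold changes in cKO against WT with a median of 0.11, and limma called 0 members (background 0% of all genes tested), as did limma with voom on the reads. At an unadjusted p under 0.05 and 2-fold, 20 members were higher (background 0.458%) and 14 lower (background 0.431%), and the smallest adjusted p of a member was 0.0811. The median was 0.68 without WT saline replicate 2 and -0.18 without WT saline replicate 1. In 7 members 1 group had 0 reads. With these at the level of 3 reads over the group, and 2 of them left out because neither group passed 3 reads, the median was 0.12.

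For FAEE-SAP against saline, the median of the members had a different sign in each genotype, and single libraries moved both widely. In WT, 60 members were positive and 84 negative with a median of -0.24, and 1 was called, lower (background, 4.12% called lower). In cKO, 110 were positive and 34 negative with a median of 0.62, and limma called 0 (background 0.135%), as did voom. Without cKO FAEE-SAP replicate 1 the median was 0.05, with 68 of 131 tested members positive, and over the other 7 libraries left out in turn it was 0.39 to 1.14. In cKO at an unadjusted p under 0.05 and 2-fold, 22 members were higher (background 2.32%) and 5 lower (background 0.97%). The comparisons share groups, so their values are set side by side and were not correlated. As deposited, 112 members were positive in WT with a median of 0.83, where all genes had a median of 1.23. Relative to that shift, the members were lower on both scales with all 8 libraries, but without WT saline replicate 2 the scaled median turned to 0.22, with 80 of 144 positive. Leaving out each of the other 7 libraries in turn gave medians of -0.66 to -0.12.

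*Igkv4-68* was the called gene in WT and the 1 member called in the interaction, the difference of the responses between genotypes (background, 0.0449% called higher). It had scaled RPKM of 2.46 and 2.25 in WT with saline and 1.09 and 0.681 with FAEE-SAP, and 0.758 and 0.851 in cKO with saline and 3.25 and 2.69 with FAEE-SAP. The 2 libraries of every group lay close together, high in WT saline and cKO FAEE-SAP and low in the other groups. Its log2 fold change with FAEE-SAP was -1.34 in WT (SE 0.24, adjusted p = 0.0179) and 1.76 in cKO (SE 0.24, adjusted p = 0.0596), and the difference was 3.11 (SE 0.34, adjusted p = 0.0413), all in limma. On values as deposited the change in WT was -0.12, which did not pass, and the difference was 2.45. The call in WT was also lost with voom and at pseudocount 1 (8% and 3.72% of all genes called). The interaction call was lost with no filter, no trend, the replicate block or voom (0% to 0.0738% of all genes called). The reads behind *Igkv4-68* were 20 and 21 in WT with saline and 20 and 17 with FAEE-SAP, and 7 and 7 in cKO with saline and 37 and 32 with FAEE-SAP. Its reads are hard to place, since 48.7% of its windows were held by another gene, 23 genes in all. *Igkv4-59*, with which it shares most, was 1.58 and 1.61 in WT with saline and 1.58 and 0.558 with FAEE-SAP, and 0.348 and 1.43 in cKO with saline and 1.32 and 3.87 with FAEE-SAP. Over all 144 members the median difference of the responses was 1.04, with 110 positive, against 0.02 for all genes tested. Without cKO FAEE-SAP replicate 1 it was 0.47. At an unadjusted p under 0.05 and 2-fold, 22 members were higher and 6 lower in the interaction (7.02% of all genes called).

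Over both treatments together, a comparison added after the data were seen, cKO against WT had 111 positive members with a median of 0.63 and 6 called higher (background, 0.252% called higher). They were *Igkv1-88* with a log2 change of 1.93 (SE 0.22), *Igkv4-57-1* with 1.74 (SE 0.22), *Ighv1-55* with 1.72 (SE 0.24), *Ighv5-9-1*, *Ighv2-5* and *Igkv15-103*, at adjusted p of 0.0227 to 0.0346 in limma. All 6 calls were lost with a replicate block, with voom, with no filter and at pseudocount 1, in fits that called 0.0147% to 0.216% of all genes. No single library could be left out without losing calls, and most such fits kept none of the 6. With each library left out in turn, the median of the members was 0.43 to 0.94. *Igkv15-103*, named after its values were seen, was 0.516 and 0.451 in WT with saline and 0.747 and 0.884 with FAEE-SAP, and 3.19 and 2.43 in cKO with saline and 1.384 and 1.503 with FAEE-SAP. *Igkv1-88*, which shares no window with another gene, had reads of 2 and 1 in WT with saline and 5 and 6 with FAEE-SAP, and 11 and 12 in cKO with saline and 8 and 12 with FAEE-SAP. *Ighv2-5* had 0 reads in both WT saline libraries, so its fold is not given. *Ighv2-5* and *Ighv5-9-1* reached the RPKM minimum in cKO libraries only, so 2 of these 6 calls entered the test through the side on which they were high.

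V genes varied more between the libraries of a group than the median gene did. The median absolute log2 difference between replicates was 0.925 to 1.13 over the 133 V members in the 4 groups, against 0.249 to 0.281 over all genes tested. The 15 B cell genes varied as much in groups with a library high in lymph node genes (1.16 in WT saline and 1.47 in cKO FAEE-SAP) and less in the others (0.735 with FAEE-SAP in WT and 0.312 with saline in cKO). Between 45.1% and 55.6% of V members differed more than 2-fold between replicates, against 4.95% to 7.53% of all genes. These spreads were not matched for read number, and the V genes had few reads. Pairs of libraries within a group and pairs from different groups overlapped in their likeness. The rank correlation of V gene shares across the 62 *Ighv* genes was 0.327 to 0.586 over the 4 pairs within a group and 0.146 to 0.464 over the 24 pairs between groups. Across the 68 *Igkv* genes it was 0.368 to 0.536 and 0.256 to 0.531. These are descriptions across genes, which share the library and its depth.

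The leading V genes differed between most libraries. Among the *Ighv* genes, *Ighv4-1* led in both WT saline libraries (13.0% and 7.42% of the summed *Ighv* RPKM), *Ighv12-3* in cKO saline replicate 1 (13.4%) and *Ighv9-3* in cKO saline replicate 2 (10.5%). With FAEE-SAP the leaders were *Ighv5-16* (11.5%) and *Ighv1-72* (8.91%) in WT and *Ighv1-9* (8.71%) and *Ighv1-7* (10.2%) in cKO. Thus 7 different *Ighv* genes led in 8 libraries. *Ighv1-72* is uncertain, since 92.5% of its windows were held by other genes. Among the *Igkv* genes, *Igkv4-86* (13.7%) and *Igkv5-39* (10.2%) led in WT saline, *Igkv4-91* (14.0%) and *Igkv5-39* (9.04%) in cKO saline, *Igkv12-44* (19.9%) and *Igkv4-55* (8.27%) in WT FAEE-SAP, and *Igkv1-110* in both cKO FAEE-SAP libraries (6.74% and 12.0%). Of *Igkv4-55*, 53.3% of the windows were held by other genes. *Iglv1* led the 3 *Iglv* genes in all 8 libraries, at no less than 51.8%.

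Several of these V genes differed widely between the replicates of a group. *Igkv12-44* had 306 of 1438 *Igkv* reads in WT FAEE-SAP replicate 1 (21.3% of reads, exact 95% interval 19.2% to 23.5%) and 12 reads in the other replicate. *Ighv5-16* had 122 of 1031 *Ighv* reads in the same library and 3 in the other replicate, but it was not confined to that library, with 67 reads in cKO FAEE-SAP replicate 1 and 26 in WT saline replicate 1. *Ighv1-81*, among the 3 highest *Ighv* genes by mean level, had 1 and 16 reads in WT with saline and 11 and 3 with FAEE-SAP, and 6 and 51 in cKO with saline and 143 and 75 with FAEE-SAP. By contrast, *Ighv1-26* and *Ighv9-3*, the highest by mean, were at 1.72 to 9.47 and 1.26 to 9.96 scaled RPKM in every library. *Igkv10-96* ranged from 3.37 to 12.3.

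In cKO saline replicate 1, *Ighv12-3* and *Igkv4-91* led together, and the heavy and light chains they encode are a known pair of B-1 cells that bind phosphatidylcholine. *Ighv12-3* had 84 of 654 *Ighv* reads there (12.8% of reads, exact 95% interval 10.4% to 15.7%) and 0 to 8 in the other libraries. *Igkv4-91* had 125 of 916 *Igkv* reads (13.6%, exact 95% interval 11.5% to 16.04%) and 1 to 20 elsewhere. In the sequences above, 0 and 65 of the 300 bases of these genes lie in windows held by another gene. Bulk reads do not show which heavy and light chains were joined in a cell. The same library was the only one with summed intestinal epithelium markers (9 genes) above 3.26 scaled RPKM, at 37.7, and their part in the result was not tested. *Igha* was 6.22 in that library, the lowest of the 8. The other textbook pair of these cells, *Ighv11-2* and *Igkv14-126*, was named after its values were seen. *Ighv11-2* had 40 and 15 reads in WT with saline and 0 and 21 with FAEE-SAP, and 37 and 18 in cKO with saline and 4 and 3 with FAEE-SAP. *Igkv14-126* had 29 and 13 in WT with saline and 10 and 16 with FAEE-SAP, and 58 and 42 in cKO with saline and 26 and 1 with FAEE-SAP.

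**Figure D4:**
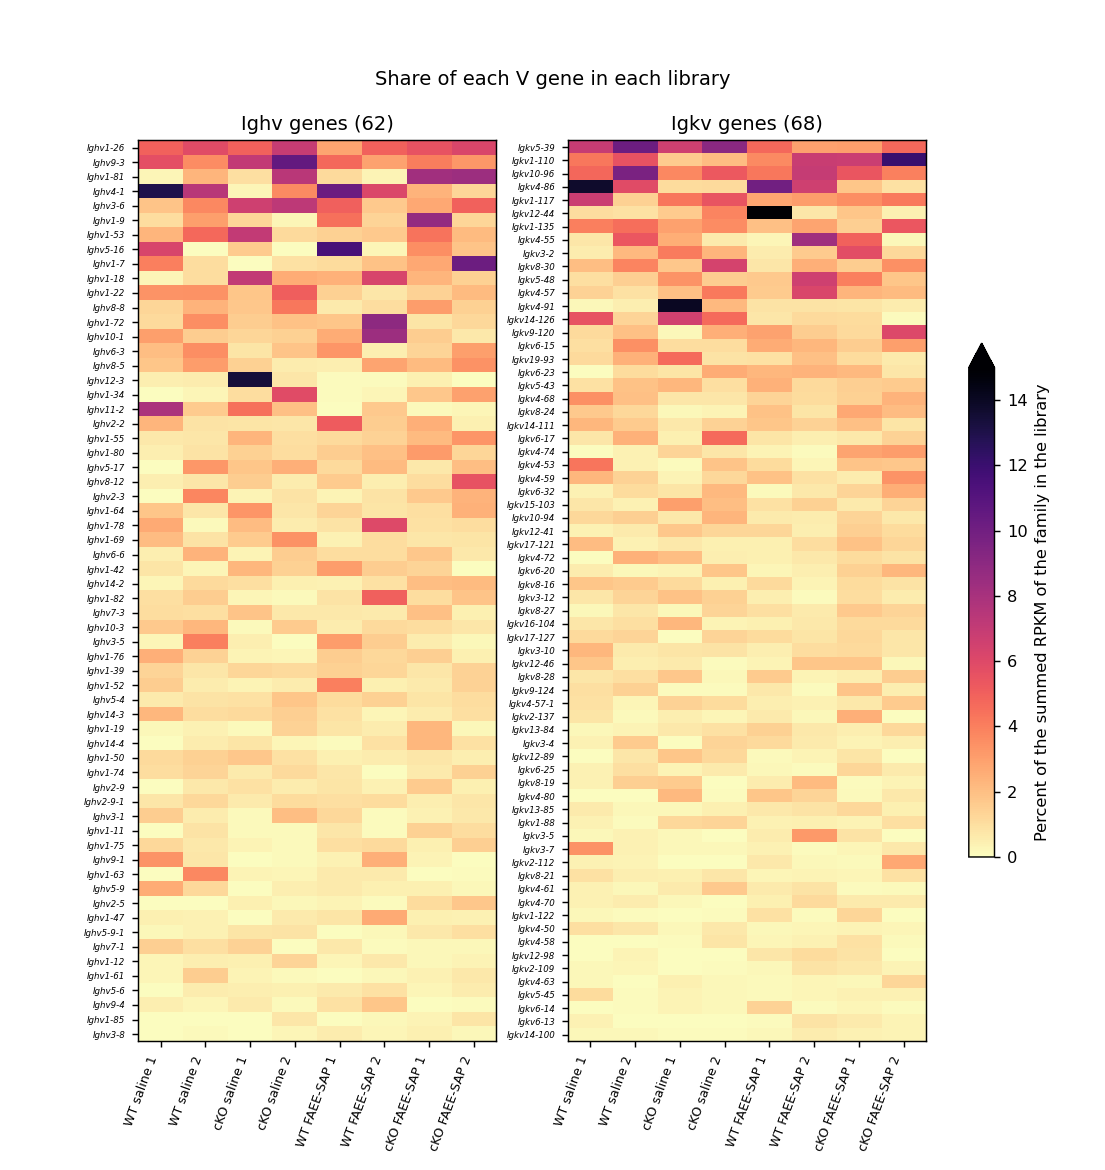
Share of each V member in the summed RPKM of its family (62 *Ighv* genes, left, and 68 *Igkv* genes, right) in each of the 8 libraries, in percent by color, with genes ordered by mean level. Dark cells stand mostly alone in their row, such as *Igkv12-44* in WT FAEE-SAP replicate 1 (19.9%) and *Ighv12-3* (13.4%) and *Igkv4-91* (14.0%) in cKO saline replicate 1.

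The genes that mark B cells had another order across the libraries. Of 15 B cell genes, all 15 were negative in cKO against WT with FAEE-SAP with a median of -0.29, whereas the members had a median of 1.15. Among these B cell genes limma called 0 (background, 2.65% of all genes called). Their summed scaled RPKM was 14.9 and 33.1 in WT with saline and 27.5 and 19.8 with FAEE-SAP, and 13.9 and 14.4 in cKO with saline and 27.9 and 11.9 with FAEE-SAP. WT saline replicate 2 and cKO FAEE-SAP replicate 1 were the highest in T cell genes (31.5 and 23.7, against 8.06 to 15.9 in the others). They were also the highest in genes of lymph node stroma and high endothelium (6 of 7 listed genes found, 79.5 and 68.3, against 33.4 to 49.6). In B cell genes they were the highest too, but WT FAEE-SAP replicate 1 (27.5) was close to cKO FAEE-SAP replicate 1 (27.9). WT saline replicate 2 and cKO FAEE-SAP replicate 1 also had the higher summed members of their groups. Without these 2 libraries, limma called 0 members in cKO against WT with FAEE-SAP (0.0183% of all genes) and *Igha* differed by 1.49 (adjusted p = 0.174). The part of lymph node tissue in the member values was not tested.

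Among 13 plasma cell genes, 10 were tested and 7 were positive in cKO against WT with FAEE-SAP, with a median of 0.48. The 1 called was *Fkbp11* (2.27, SE 0.31, adjusted p = 0.0190 in limma), a folding protein of the endoplasmic reticulum that acinar cells also use. *Jchain*, which links IgA and IgM subunits, was 3.81 and 6.82 in WT with saline and 3.30 and 2.58 with FAEE-SAP, and 7.41 and 7.67 in cKO with saline and 12.7 and 6.88 with FAEE-SAP. Its log2 fold change in cKO with FAEE-SAP was 1.65 (SE 0.36, adjusted p = 0.0608 in limma). *Mzb1*, a chaperone of IgM assembly, was 1.74 and 1.19 in WT mice given FAEE-SAP, against 4.17 and 1.94 in cKO. The members of the list below 0 were *Sdc1* (CD138), a surface proteoglycan of plasma cells and epithelia, at -1.67 (SE 0.39, adjusted p = 0.0675 in limma), *Xbp1*, a factor of secretory cells, at -0.71, and *Pou2af1*, a B cell coactivator, at -0.34. In the same comparison 6 of 9 acinar genes were called higher, with a median of 1.29 (background, 1.66% of all genes tested called higher). Germinal center genes (6 genes, 1.06 to 3.03 summed) and genes of V(D)J recombination (7 genes, 0.310 to 1.59 summed, *Vpreb2* at 0 in every library) were low, with *S1pr2* (0.504 to 2.12), *Bcl6* (up to 0.907) and *Vpreb3* (up to 1.45) the 3 that were tested.

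Of 12 genes that bind or carry antibodies, 10 were tested, and with FAEE-SAP in WT 4 rose (background, 3.36% of all genes called higher) and 6 did not pass. *Pigr*, which carries IgA and IgM across epithelia, was 0.734 and 1.05 in WT saline and 8.03 and 7.61 in WT FAEE-SAP, a log2 change of 3.02 (SE 0.59, adjusted p = 0.0241 in limma). The Fc receptor genes *Fcgr4* (2.33), *Fcgr1* (2.11) and *Fcer1g* (1.80) were the others, at adjusted p of 0.0160 to 0.0492 in limma. In cKO, *Pigr* was 4.13 and 0.880 with saline and 1.15 and 1.21 with FAEE-SAP, and the 4.13 was in the library with intestinal markers. None of the 10 passed in cKO with FAEE-SAP against saline, where few genes were called at all (background 0.135%), and *Fcgr1* differed by 2.28 there (adjusted p = 0.216 in limma).

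**Figure D5:**
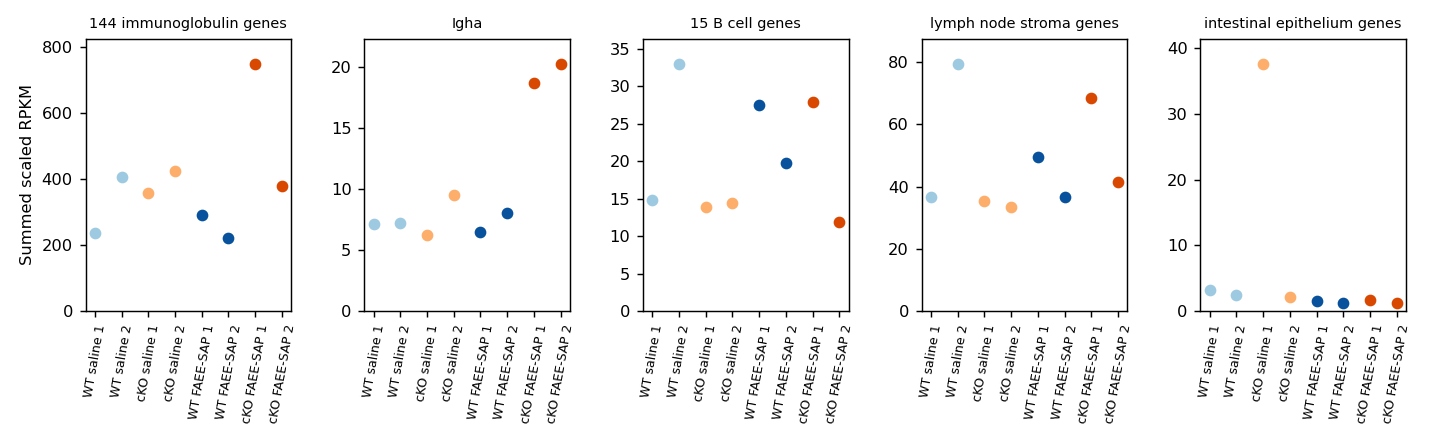
Summed scaled RPKM per library of the 144 members, of *Igha* alone, and of the B cell, lymph node stroma and intestinal epithelium genes, with each axis starting at 0. WT saline replicate 2 and cKO FAEE-SAP replicate 1 are the highest in B cell and lymph node genes, with WT FAEE-SAP replicate 1 close to the latter in B cell genes. *Igha* is high in both cKO FAEE-SAP libraries, and the intestinal genes reach 37.7 in cKO saline replicate 1 only.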

How the data were processed

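The authors deposited RPKM per gene for each library. Per the study's methods, directional paired-end libraries were filtered with fastp and mapped to GRCm38.p6 with CLC Genomics Workbench. How RPKM was computed, and whether multi-mapping or strand was used, is not given in the sources used here. The main test used RPKM, and a test of reads worked out from it (voom) was an alternative.

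The 144 members and the gene lists were chosen with earlier results of these data known. Exonic lengths, coordinates and transcript sequences came from GENCODE vM21 (GRCm38), to which 46325 genes (95.1%) and all 144 members matched by symbol. Library totals (22.9 to 37.7 M reads) were worked out from the low values, and reads from RPKM, length and total, so reads are approximate. Intervals are exact (Clopper-Pearson) and cover counting error only. The values did not settle whether a read or a read pair was counted.

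RPKM was scaled by the median ratio to the geometric mean and tested as log2(scaled RPKM + 0.1), using limma (version 3.58.1, R version 4.3.3) with its variance prior following intensity, in 1 model of the 8 libraries with 4 residual degrees of freedom. Folds are on that scale and understate changes of low genes. Genes entered at 0.5 RPKM or more in 2 libraries or more (11133 genes). A gene was called at a Benjamini-Hochberg adjusted p under 0.05 and at least 2-fold. Permuting 2 libraries against 2 gives an exact p of 0.33 at the smallest, so it was not used. The procedure was tested on simulated data. Alternatives were values as deposited, other scalings, filters and pseudocounts, no trend, voom on the reads, a replicate block, fits of 4 libraries and each library left out. Gene lists are described by counts and medians, with no set test. The genes named were all constant members, the largest calls in each direction, the highest V genes by mean and by share in each library, and their closest paralogs. The comparison over both treatments and the removal of the 2 libraries highest in lymph node stroma genes were added after the data were seen. Other steps used Python 3.11.15 with numpy 2.4.6, scipy 1.17.1, pandas 2.3.3 and matplotlib 3.10.9.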

Additional observations from a re-analysis of the deposited data

Results flagged for a closer look

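*Igkv4-68* was flagged because its response to FAEE-SAP differed between the genotypes. It was lower with FAEE-SAP in WT and higher in cKO, and the difference of the responses was 3.11 on the log2 scale (SE 0.34, adjusted p = 0.0413 in limma with Benjamini-Hochberg adjustment). All 4 groups had replicates close together, on 7 to 37 reads per library. On values as deposited the change in WT was -0.12 and the difference of the responses 2.45. The adjusted p was 0.107 with a replicate block, 0.19 with voom on the reads and 0.04998 to 0.194 when single libraries were left out. Because 48.7% of its windows of 50 bases are found in other genes, the value may include reads of related *Igkv4* genes, which was not tested.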

How the results depend on the processing

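In each sentence the percent in parentheses is the share of all genes called in the same fit. In cKO against WT with FAEE-SAP the 8 calls (2.65%) became 18 on values as deposited (40%, with 13 of the 18 higher and 5 lower), 1 with no filter (0.314%), 15 with only the 4 libraries (1.27%), 49 at an unadjusted p (7.87%), 0 without the 2 libraries highest in lymph node stroma genes (0.0183%), and 0 to 11 when single libraries were left out (0.0811% to 2.26%). With saline the 0 calls (0%) became 1 as deposited (0.0269%), 1 with quantile normalization (0.0269%) and 34 unadjusted (0.889%). In WT with FAEE-SAP against saline the 1 call (7.48%), lower, was lost as deposited, where 27 others were called, all higher (64.7%), and the count became 0 at pseudocount 1 (3.72%), 2 at pseudocount 0.01 (7.48%), 2 with the replicate block (6.46%), 0 with voom (8%), 4 without the 2 libraries (2.47%), 4 with only the 4 libraries (6.93%), 18 unadjusted (11.4%), and 1 to 4 without single libraries (1.55% to 7.35%), with the call itself lost without WT saline replicate 1, WT saline replicate 2 or WT FAEE-SAP replicate 2. In cKO the 0 calls (0.135%) became 13 as deposited (6.69%), 2 at an RPKM minimum of 2 (0.306%), 3 at pseudocount 1 (0.18%), 1 without the 2 libraries (0.064%), 27 unadjusted (3.29%), and 0 to 1 without single libraries (0.0541% to 0.135%). The interaction call (0.0719%) became 4 as deposited (7.11%, with 1 higher and 3 lower) and 28 unadjusted (7.02%). It became 0 with no filter, pseudocount 0.01, no trend, the replicate block or voom (0% to 0.0738%). Most fits without a single library did not keep the call. The median of the members in the interaction was 0.47 to 1.48 in those fits, and 0.13 without the 2 libraries. Over both treatments the 6 calls (0.341%) became 21 as deposited (7.46%, with 14 higher and 7 lower), 1 at an RPKM minimum of 2 (0.48%) and 38 unadjusted (1.91%). At pseudocount 1 none of the 6 was called and 2 others were (0.216%). With no filter, the block or voom, 0 were called (0.0147% to 0.212%). Most fits without a single library kept none of the 6. The median of the members in those fits was 0.43 to 0.94, and without the 2 libraries it was 0.61.

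As deposited, the median of the members in WT with FAEE-SAP turned to 0.83, the log2 difference of their summed RPKM to 1.03, *Igha* in cKO against WT with saline to -0.20 and *Ighm* in cKO against WT with FAEE-SAP to -0.20. *Ighm* was -0.091 without the 2 libraries. When single libraries were left out, *Ighm* ranged from -0.091 to 1.62, *Igha* with saline from -0.20 to 0.40, and *Igha* with FAEE-SAP in WT from -0.13 to 0.17. The last was -0.04 at an RPKM minimum of 2. A minimum of 2 RPKM kept 66 members. The causes were not tested.

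Whether replicate numbers pair the libraries is not known. Same-numbered deviations correlated at -0.522 to -0.175 in pairs with WT saline and at 0.184 to 0.399 between the other groups, which does not settle it. With the block, 9 members were called in cKO against WT with FAEE-SAP, 7 of them shared (1.72% of all genes called). With voom 7 were called, 5 of them shared (3.81%). Depth limits the low V genes, with 125 to 143 members above 0 per library.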
